A study of Mus musculus with 15 samples.

Results

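The numbered Zfp genes of the mouse encode zinc finger proteins, and 239 of them were described here across organoids grown from primary colon tumours and from liver metastases. A member had to be a protein-coding gene whose GENCODE symbol is Zfp followed by a number alone, had to lie on a chromosome other than 9 or 18, and had to reach a level of at least 2 CPM (counts scaled to a common library total) in at least 3 of the 15 libraries. Of the 365 protein-coding genes with such a symbol in the table of 54418 genes, 29 lay on chromosomes 9 or 18 and 97 stayed below the level, 18 of them with no count in any library. Members were thus chosen by their levels in these same libraries, which are given as a description. Just inside it stood Zfp420, with 2.03 CPM in its third-highest library, and just outside it Zfp229, with 1.99 CPM. In 173 members the level was reached in all 15 libraries.

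Zinc fingers of this family are small loops held by a zinc ion, and a string of them reads a DNA or RNA sequence. Many Zfp genes also encode a KRAB domain, which recruits Trim28 and, through it, histone methyltransferases and heterochromatin proteins, so that the bound DNA is silenced. KRAB zinc finger genes arose by repeated duplication and often stand side by side in the genome, and several of them silence retroelements or protect imprinted genes. Other numbered Zfp genes share the name without the function and act in mRNA decay, on the ribosome or as activators.

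The libraries were poly(A)-selected RNA-seq of colon cancer organoids (three-dimensional cultures of tumour epithelium) of genotype AKP that had been passed through C57Bl6 recipient mice, which are immunocompetent. Organoids were derived from liver metastases and put back into the colon of new mice over successive transplant rounds, and organoids from primary tumours were carried along as controls. The groups, of 3 libraries each, were metastasis-derived organoids of round 1 (Met1), round 2 (Met2) and round 3 (Met3) and primary-tumour organoids of round 2 (Primary2) and round 3 (Primary3). All 5 groups carry the AKP genotype and all had passed through mice. No library of a first-round primary tumour is among the 15, so Met1 has no primary control of its own round. Whether replicates were separate mice, organoid lines or cultures is not in the labels. The p-values therefore cover the spread between these libraries and nothing beyond it, which may be technical.

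Library totals ran from 14122203 to 21306543 counts. Summed over 6 epithelial marker genes, levels were 3009 to 4352 CPM in Primary2 and 3368 to 4134 CPM in Primary3. They were 6122 to 8625 CPM in Met1, 2697 to 7357 CPM in Met2 and 6164 to 7994 CPM in Met3. The epithelial label thus matched its markers in every library, but Met1 and Met3 lay above both primary groups. The marker genes did not all move together. By edgeR in Met2 and Met3 against primary, Krt8 was higher (adjusted p = 0.0021) and Cdh1 lower (adjusted p = 0.0435). Markers of other cell types were low. The 5 hepatocyte genes summed to 1.38 to 5.96 CPM in Met1 and to at most 0.806 CPM in any other library, the 7 fibroblast genes reached 5.16 CPM in Met2 replicate 1 and at most 0.701 CPM in the libraries of other groups, and the 5 leukocyte genes summed to 5.96 to 29.3 CPM with Lyz2 at 0 and Ptprc at most 0.376 CPM. The hepatocyte sum in Met1 was mostly Alb, at 1.01 to 5.66 CPM, and each other hepatocyte gene was at most 0.412 CPM. Csf1r, a receptor of macrophages, stood at 1.67 to 7.90 CPM in primary and at most 0.346 CPM in Met2 and Met3 (log2 change -4.46 by edgeR, adjusted p = 0.00068), while Cd68 was higher there (0.97, adjusted p = 0.0266) and in Met1 (1.66, adjusted p = 0.00466). The gene CT010467.1, a ribosomal RNA sequence, took 6.24% to 7.52% of the counts in Met2 and 2.01% to 7.03% in the other groups. The part of any of these in the differences below was not tested.

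Met2 replicate 1 stood apart from its group. Between this library and the other Met2 libraries the chi-square of gene counts per degree of freedom was 86.95 and 106, against 10.7 to 50.4 in every other pair of replicates. It also carried the fibroblast markers, with Dcn at 2.28 CPM and Col3a1 at 1.68 CPM. Without it, 72 members were called in metastasis against primary, 23 higher and 49 lower, in place of the 65 described below. Calls over all genes rose as well, from 4537 of 14925 to 5265 of 15372.

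The 239 members together took 0.352% to 0.478% of all counts. Their mean level ran from 0.954 CPM for Zfp334 to 199 CPM for Zfp207, a spindle assembly factor, with a median of 8.44 CPM against 19.3 CPM over all 14925 tested genes. Most Zfp genes were thus weakly expressed, 132 of them below 10 CPM. Their summed share was 0.352% to 0.370% in Met3 and 0.416% to 0.478% in Met1, so the libraries of these 2 groups did not overlap. Met3 also lay below Primary2 (0.416% to 0.437%) and Primary3 (0.375% to 0.425%). Met2, at 0.356% to 0.405%, lay below Met1 and Primary2 and overlapped with Met3 and Primary3. In bulk libraries like these, fewer cells expressing a gene and less RNA per cell cannot be told apart.

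Primary tumour and metastasis were first compared over rounds 2 and 3, with the mean of Met2 and Met3 set against the mean of Primary2 and Primary3. By edgeR's quasi-likelihood test with Benjamini-Hochberg adjustment over all tested genes, 65 of 239 members differed (27.2%), where 30.4% of all tested genes did. Higher in metastasis were 20 members, 8.37% against 14.3% of all genes, and lower were 45, 18.8% against 16.1%. The median change of the members was -0.09 on the log2 scale, against 0.01 for all tested genes. Of the 239 fitted changes 146 were negative (61.1%), against 49.1% over all tested genes. The share called either way is thus near the background. Called without overlap between the 6 metastasis and 6 primary libraries were 24 of the 239 (10.04%, background 11.9%). A change of at least 2-fold was called in 9 members upward and 16 downward, together 10.5% of the 239 (background 12.3%). Of the members, 12 would not meet the level rule without the primary libraries, 3 would not without Met2 and Met3, and Zfp947 would not without either. With these 16 left out, 19 members were higher and 38 lower among 223. With no filter on low counts in the fit, 37 members were called in place of 65. That fit called 3883 of 32481 genes in all, in place of 4537 of 14925.

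**Figure D1:**
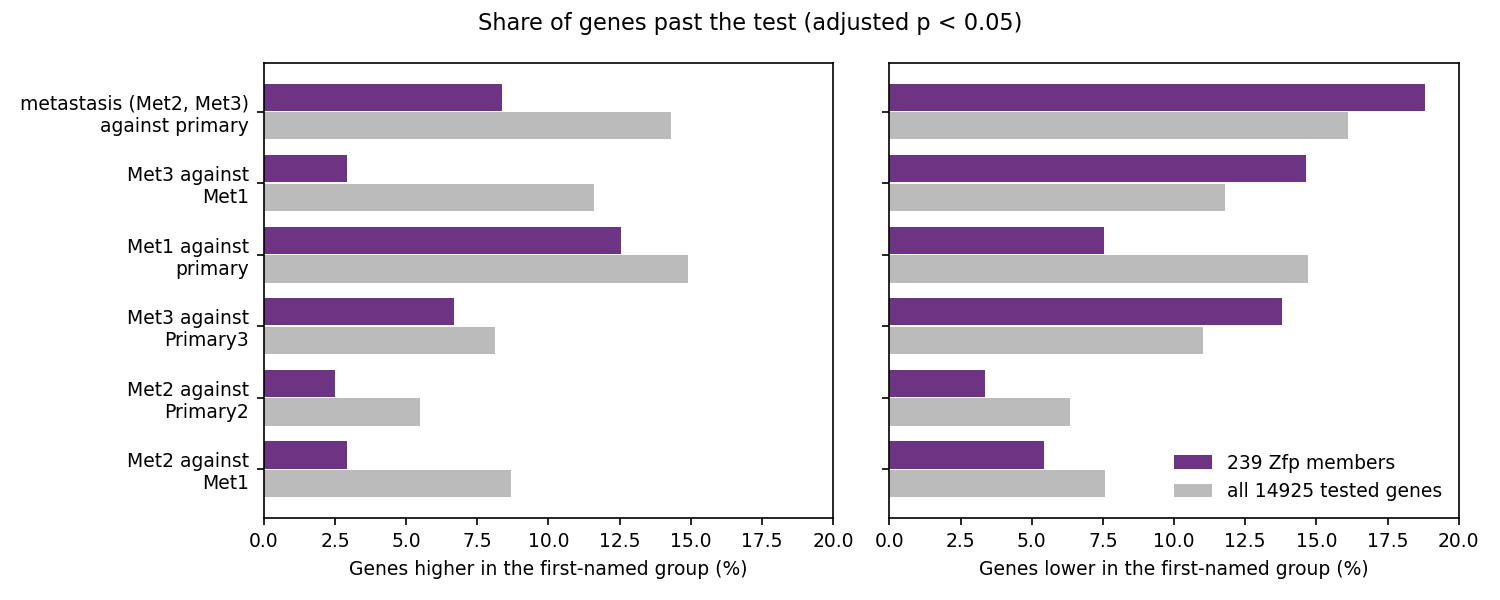
Share of genes past the test at an adjusted p under 0.05, in percent, for 6 comparisons, with genes higher in the first-named group on the left and lower on the right. Purple bars are the 239 Zfp members and grey bars all 14925 tested genes. In Met3 against Met1 2.93% of members were higher and 14.6% lower, against 11.6% and 11.8% of all genes.

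Members lower in metastasis included a series of neighbours on chromosome 7. Ordered along the chromosomes with at most 500 kb between neighbours, the members formed 115 neighbouring pairs, and 151 of them had a member as neighbour. In metastasis against primary, both genes of a pair were called in the same direction in 10 pairs (8.70%), and in opposite directions in 1. Over all tested genes the same count was 1252 of 13922 neighbouring pairs (8.99%), so the share among Zfp genes was near that of neighbours in general. Of the 10 pairs, 6 lay in 2 runs on chromosome 7 that a single uncalled member, Zfp74, divides. The first run was Zfp420, Zfp27 and Zfp383 (chromosome 7, 29859979 to 29916813, GRCm38) and the second was Zfp568, Zfp82, Zfp566, Zfp260 and Zfp146 (29983955 to 30169750). All 8 were lower in metastasis. Of these, Zfp420, Zfp383 and Zfp566 would not meet the level rule without the primary libraries, where they were higher. Pairs and runs that hold them are thus a description. Joining the runs across Zfp74 was done after the values were seen, so the joined stretch is a description.

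The promoters of these genes share a string of letters. RefSeq promoter windows (GRCm38.p6; 250 bases before to 50 after each start) were at hand for 10 of the 11 Zfp genes between Zfp420 and Zfp146. Of all 3133 words of 12 bases in these windows, read on both strands, the one held by the most genes was ACTACATTTCCC, together with the word 1 base further on. It stood in 6 of the 10 genes, which were Zfp420, Zfp383, Zfp74, Zfp14, Zfp566 and Zfp260, and not in the windows of Zfp27, Zfp82, Zfp382 and Zfp146. Being picked as the most shared word, its count in the stretch is a description. Over all 27025 genes with a window it stood in 0.592%, and over members with a window in 7.21%, 15 of 208. A match is a stretch of letters and shows no binding. The 250 bases before the start are shown for the 5 members with a match, because this shared word is what the rule did not use. They are given 5′ to 3′ on the gene's strand with the matched letters in capitals. In Zfp74 and Zfp260 the word is on the opposite strand and reads as its reverse complement. The windows are chr7:29859762-29860011 (Zfp420), chr7:29908267-29908516 (Zfp383) and chr7:30094826-30095075 (Zfp260) on the plus strand, and chr7:29954066-29954315 (Zfp74) and chr7:30090511-30090760 (Zfp566) on the minus strand.

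Zfp420: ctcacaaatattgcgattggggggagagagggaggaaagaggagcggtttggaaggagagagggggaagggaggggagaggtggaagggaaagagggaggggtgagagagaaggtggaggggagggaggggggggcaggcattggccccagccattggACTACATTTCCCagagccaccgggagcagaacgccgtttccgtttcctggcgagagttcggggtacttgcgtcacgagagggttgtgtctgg

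Zfp383: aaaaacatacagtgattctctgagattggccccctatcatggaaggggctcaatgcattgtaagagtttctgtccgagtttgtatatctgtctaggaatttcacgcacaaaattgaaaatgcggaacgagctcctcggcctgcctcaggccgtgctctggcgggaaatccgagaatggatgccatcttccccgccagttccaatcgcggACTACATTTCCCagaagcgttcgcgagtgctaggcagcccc

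Zfp74: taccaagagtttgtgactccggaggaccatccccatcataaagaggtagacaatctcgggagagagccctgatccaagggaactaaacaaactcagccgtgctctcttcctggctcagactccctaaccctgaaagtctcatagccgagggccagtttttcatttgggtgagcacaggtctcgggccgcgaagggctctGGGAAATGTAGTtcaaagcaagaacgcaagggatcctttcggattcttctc

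Zfp566: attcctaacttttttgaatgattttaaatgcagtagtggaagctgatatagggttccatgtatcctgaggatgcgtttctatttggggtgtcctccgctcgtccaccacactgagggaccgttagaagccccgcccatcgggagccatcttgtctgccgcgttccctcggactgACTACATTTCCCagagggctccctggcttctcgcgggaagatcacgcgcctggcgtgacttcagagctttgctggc

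Zfp260: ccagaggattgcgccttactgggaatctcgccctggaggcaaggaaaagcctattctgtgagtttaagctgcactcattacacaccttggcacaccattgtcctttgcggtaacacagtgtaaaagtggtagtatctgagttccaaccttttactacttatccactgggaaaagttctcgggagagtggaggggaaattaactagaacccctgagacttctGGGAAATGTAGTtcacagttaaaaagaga

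The word begins 92 bases before the start in Zfp420, 41 in Zfp383, 51 in Zfp74, 76 in Zfp566 and 29 in Zfp260. Among members with a window, it was found in 5 of 39 that were lower in metastasis, in 1 of 18 that were higher and in 9 of 151 that were not called. Of the 5 lower members with the word, 4 lie in the stretch. Outside the stretch, 10 of 200 members with a window held it. The ETS letters CCGGAAG, searched on both strands, stood in 2 of the 11 windows of the stretch, in 21.6% of member windows and in 8.86% of all windows. CpG dinucleotides numbered 1 to 32 per window in the stretch, with a median of 15 over members and 7 over all windows.

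Zfp568, a KRAB zinc finger that silences a placental Igf2 transcript, was the most strongly supported gene of the stretch. In CPM scaled by library composition (TMM), the scale of every level given from here on, it stood at 36.0, 27.2 and 31.7 in Primary2 and at 36.9, 27.0 and 25.8 in Primary3. In Met2 it stood at 14.2, 16.3 and 14.8 and in Met3 at 11.05, 14.2 and 17.1. All 6 metastasis libraries were below all 6 primary libraries. The fitted decrease of Zfp568 was -1.07 in log2, with an SE of 0.14 and an adjusted p of 0.000215. Met1 lay between, at 23.04, 23.3 and 30.3 CPM, overlapping with primary. Met3 and Met2 were both below Met1, by 0.85 and 0.76 in log2 (adjusted p = 0.00917 and 0.0231). The Met2 against Met1 call was lost without Met1 replicate 2 (adjusted p = 0.0589), Met1 replicate 3 (0.0778) or Met2 replicate 3 (0.0604).

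Zfp146, at the far end of the stretch, was the most abundant of its genes. Levels were 59.8, 48.1 and 44.1 CPM in Primary2, 56.2, 52.3 and 53.7 CPM in Primary3, 37.9, 37.97 and 26.7 CPM in Met2 and 26.7, 34.6 and 31.1 CPM in Met3. Metastasis and primary did not overlap. Its fitted log2 change of -0.69 had an SE of 0.11 and an adjusted p of 0.00079. Met1, at 38.7, 39.1 and 35.9 CPM, was also below every primary library (log2 change -0.47, adjusted p = 0.0223). Zfp260, a zinc finger known from heart muscle, fell by 0.61 (SE 0.15, adjusted p = 0.00957). Its fall lay mainly in Met3, at 16.4, 28.9 and 19.5 CPM, against 34.9, 46.3 and 45.5 CPM in Primary3. In Met2 it stood at 37.1, 29.9 and 22.3 CPM, overlapping with the 32.1, 39.1 and 35.0 CPM of Primary2.

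Zfp27 was near 6 CPM in both primary groups, from 5.98 to 6.88 CPM. In Met2 it stood at 3.89, 3.61 and 5.80 CPM and in Met3 at 3.02, 2.02 and 2.46 CPM, all below the primary libraries. It fell by 0.97 in log2 (SE 0.17, adjusted p = 0.00158), and Met3 was below Met1 by 0.87 (adjusted p = 0.0239). The lower-expressed members were less certain. Zfp420 ran from 1.47 to 2.79 CPM in primary and from 0.593 to 1.35 CPM in Met2 and Met3, a log2 change of -0.96 (adjusted p = 0.0186). Without Met3 replicate 1 its call was lost (adjusted p = 0.0579). Zfp383 ran from 1.86 to 3.15 CPM in primary and from 0.577 to 2.28 CPM in metastasis, overlapping in Met2 replicate 1 (log2 change -1.13, adjusted p = 0.0113). Zfp566 stood at 2.003 to 3.65 CPM and 1.08 to 2.55 CPM (log2 change -0.78, adjusted p = 0.027). Its call was lost without any one of 6 libraries, with adjusted p up to 0.0809 (without Met3 replicate 1). Zfp420, Zfp383 and Zfp566 would not meet the level rule without the primary libraries.

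Zfp82 was low mainly in Met3. It stood at 3.47 to 4.73 CPM in Primary2, 3.23 to 4.43 CPM in Primary3 and 3.66 to 5.40 CPM in Met1. Met2 was divided, with 5.70 CPM in replicate 1 against 1.35 and 1.54 CPM in the others, and Met3 held only 0.485, 0.750 and 0.629 CPM. Its log2 change was -1.53 for metastasis against primary (SE 0.34, adjusted p = 0.00527), -2.02 without Met2 replicate 1, and -2.88 for Met3 against Met1 (SE 0.51, adjusted p = 0.00309). Of the 31-base words in its transcripts, 33.6% also occur in another gene, almost all of them in Gm26920, so part of its counts may belong there. Zfp566 shares 16.96% of its words, again mainly with Gm26920, while the other called members of the stretch share at most 2.81%.

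**Figure D2:**
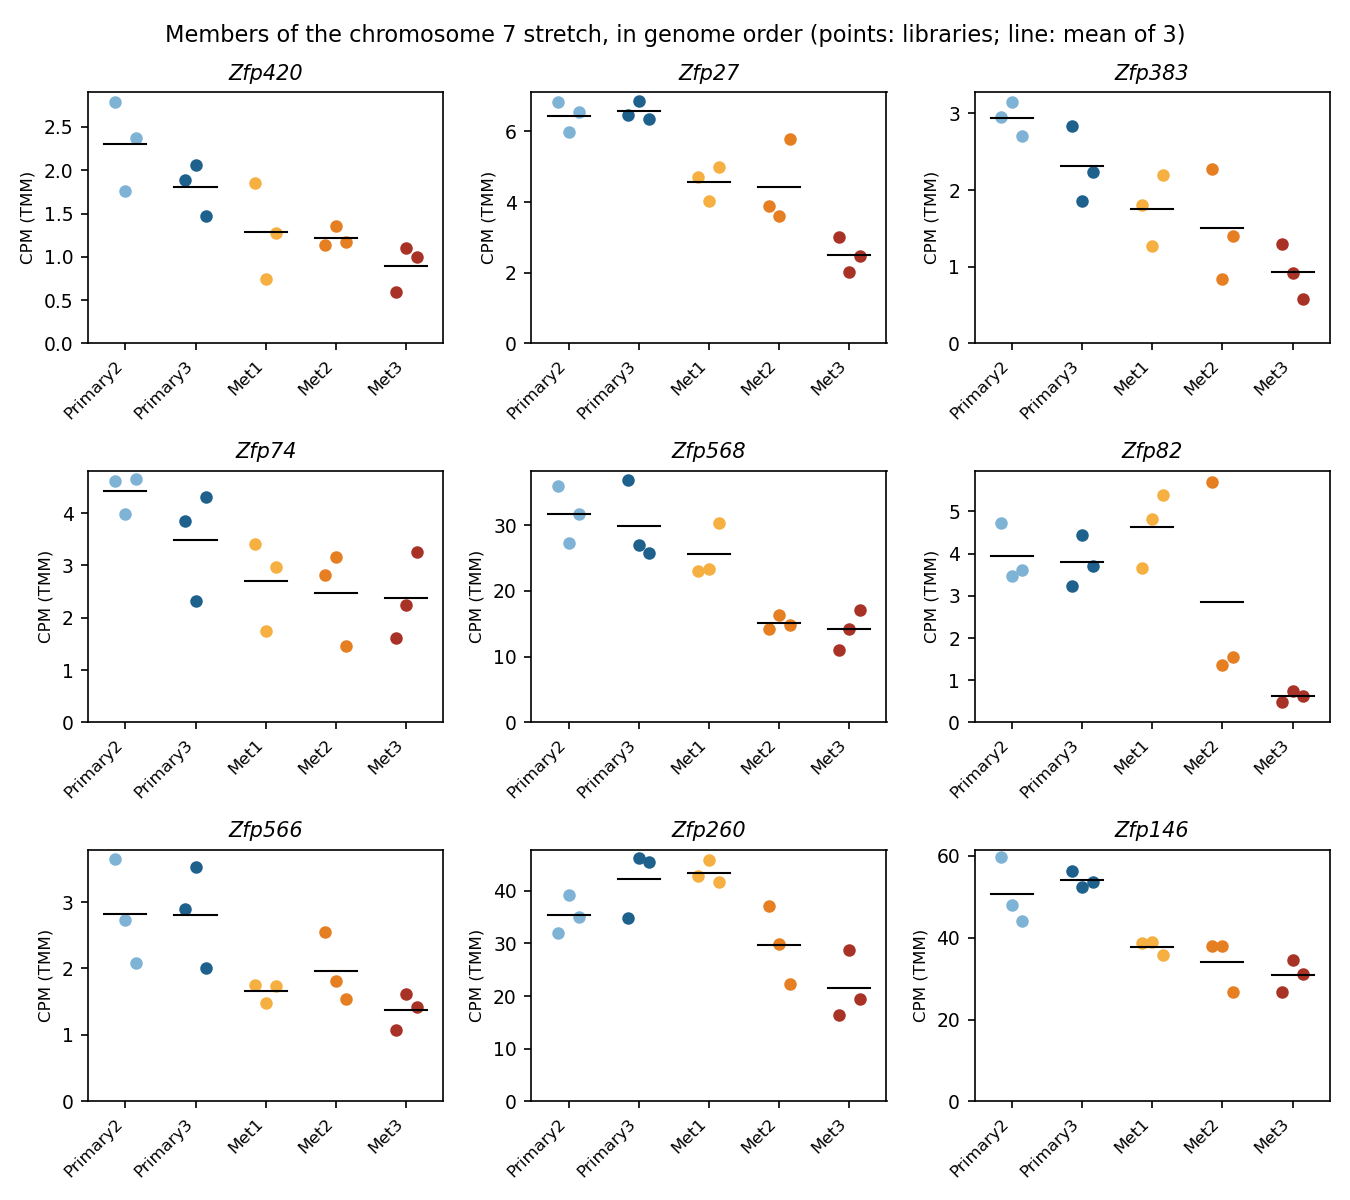
CPM (TMM-scaled, linear axis from 0) of the 9 members of the chromosome 7 stretch in genome order, by group. Points are libraries and lines the means of 3. In Zfp568 and Zfp146 every Met2 and Met3 library lies below every primary library, while Zfp82 keeps its level in Met1 and falls below 1 CPM in all 3 Met3 libraries.

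Genes of other kinds in and beside the stretch were not called lower. The interval from Zfp420 to Zfp146 spans 310 kb and holds 13 tested genes, 11 of them Zfp. All 11 had a negative log2 change in metastasis against primary and 9 were called, counting Zfp14, which is below the level of a member (-1.25, adjusted p = 0.0411). Zfp74 stood at -0.69 (adjusted p = 0.0734) and the low-level Zfp382 at -0.48 (adjusted p = 0.448). The remaining tested genes were not zinc fingers and were not lower: Gm44873 stood at 0.17 (adjusted p = 0.672) and C230062I16Rik at 0.48 (adjusted p = 0.504). On the left, Zfp790 changed by -0.36 (adjusted p = 0.0587) and Zfp84 by -0.07 (adjusted p = 0.682), with Zfp940, below the level of a member, at -2.06 (adjusted p = 0.0412). On the right, Gm5113, which starts 125 bases from Zfp146, stood at -0.08 (adjusted p = 0.818), and Cox7a1, Capns1 and Tbcb at 0.31, 0.20 and 0.24, of which Tbcb rose (adjusted p = 0.0155). In Met3 against Met1, 4 of the members here were lower (Zfp27, Zfp568, Zfp82 and Zfp260), and Gm44873 was higher by 1.26 (adjusted p = 0.0327).

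**Figure D3:**
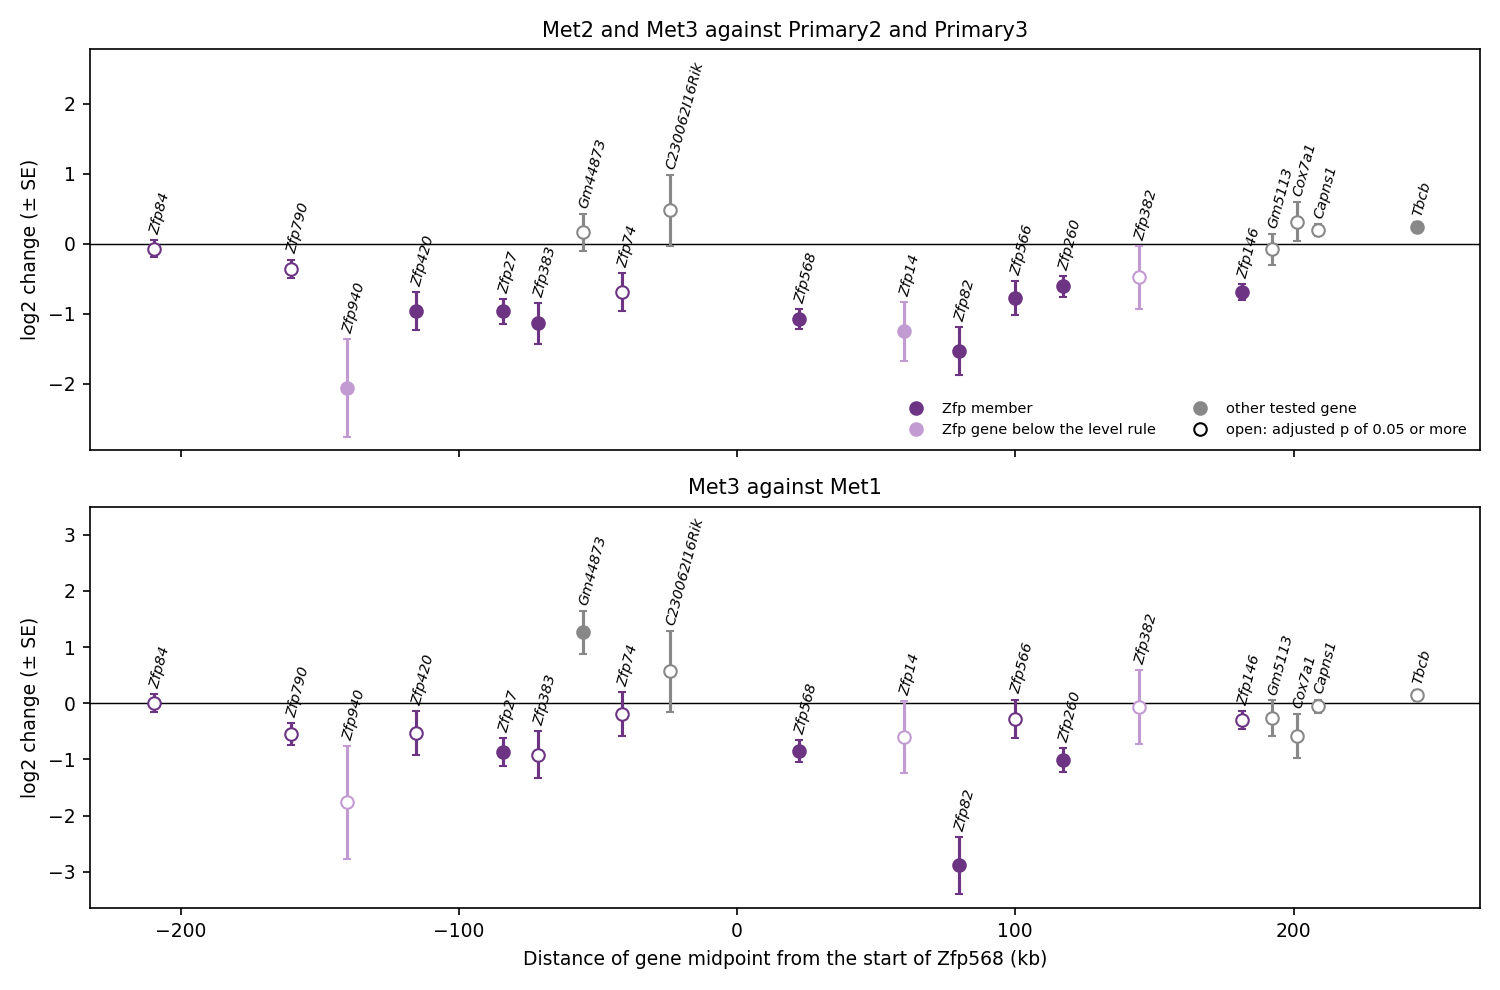
Fitted log2 change of each tested gene against the distance of its midpoint from the start of Zfp568, in kb, for metastasis against primary (top) and Met3 against Met1 (bottom). Bars are standard errors, dark purple marks members, light purple other Zfp genes, grey other genes, and open symbols genes that did not pass the test. In the top panel all 11 Zfp genes from Zfp420 to Zfp146 lie below 0 while the genes to the right of Zfp146 lie near or above it.

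Elsewhere, neighbouring pairs called together in metastasis against primary were Zfp777 with Zfp746 on chromosome 6 and Zfp59 with Zfp974 on chromosome 7, both higher (Zfp59 shares 65.1% of its 31-base words with other genes), and Zfp871 with Zfp799 on chromosome 17 and Zfp930 with Zfp868 on chromosome 8, both lower. Zfp777 stood at 20.5 to 23.9 CPM in primary, at 25.5 to 34.2 CPM in Met2 and Met3 and at 46.1, 36.9 and 37.9 CPM in Met1, with no overlap between these ranges (metastasis against primary 0.47, adjusted p = 0.00292; Met1 against primary 0.88, adjusted p = 0.000483). Its neighbour Zfp746 ran alongside, from 21.4 to 24.2 CPM in primary to 57.7, 40.0 and 39.5 CPM in Met1 (log2 change 1.01, adjusted p = 0.00112). The largest cluster, 19 members on chromosome 17 between Zfp160 and Zfp213, held 1 member higher and 1 lower. Other clusters are described with their values in view. On chromosome 8, the 5 members from Zfp930 to Zfp866 all had a negative change (median -0.34), and Zfp930, Zfp868 and Zfp866 (-0.74, adjusted p = 0.00281) were called. On chromosome 13, the 10 members from Zfp595 to Zfp65 had a median change of 0.00, with 1 higher and 1 lower.

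Outside the stretch, the members that rose most were barely expressed in primary organoids. Zfp462, a chromatin-associated factor needed in stem cells and early development, stood at 0.161, 0 and 0.0948 CPM in Primary2 and 0.741, 0.193 and 0.295 CPM in Primary3. In Met1 it stood at 14.2, 4.29 and 2.42 CPM, in Met2 at 15.3, 5.93 and 8.81 CPM and in Met3 at 2.37, 7.50 and 6.71 CPM. Every metastasis library, Met1 included, was above every primary library. Zfp462 reached the level of the rule in 9 libraries, none of them primary, so it is a member only through the groups where it is high. It was not among the members left out above, because the Met1 libraries alone meet the rule. The log2 change was 5.27 (SE 0.65, adjusted p = 0.000174) for Met2 and Met3 and 5.18 (SE 0.69, adjusted p = 0.000592) for Met1, both against the same primary libraries. The size of so large a change rests on a few counts in the primary libraries.

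Zfp984 had the same form, at 0.321 to 2.41 CPM in primary, 14.7, 4.98 and 8.28 CPM in Met1, 11.1, 13.0 and 10.7 CPM in Met2 and 7.92, 8.08 and 7.02 CPM in Met3. The metastasis libraries did not overlap with the primary libraries, and the log2 change of Met2 and Met3 against primary was 3.31 (SE 0.45, adjusted p = 0.00028). Zfp984 reached the level of the rule in every library of the groups where it is high. As for Zfp462, the Met1 libraries alone meet the rule, so Zfp984 was not among the members left out above. Its transcripts share 68.8% of their 31-base words with other genes, 58.1% with Gm13212, so the counts may come from either. Zfp37 rose by 1.45 (SE 0.23, adjusted p = 0.000797), from 1.82 to 4.57 CPM in primary to 4.89 to 10.2 CPM in Met2 and Met3. Zfp974 rose by 1.25 (SE 0.23, adjusted p = 0.00181), from 3.004 to 4.24 CPM to 5.16 to 12.4 CPM, and shares 24.4% of its words with other genes. Zfp710 rose by 0.76 (SE 0.10, adjusted p = 0.000228), from 14.3 to 20.6 CPM to 24.1 to 39.2 CPM. Zfp738 rose by 0.58 (adjusted p = 0.0266), a call lost without any one of 5 libraries (up to 0.0637, without Primary3 replicate 2).

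Among the members that fell, Zfp358 changed most. It stood at 10.5, 12.7 and 12.7 CPM in Primary2 and 11.1, 13.1 and 13.9 CPM in Primary3. In Met2 it stood at 7.04, 2.58 and 2.72 CPM and in Met3 at 1.45, 1.79 and 4.09 CPM, all below primary. It fell by 1.96 (SE 0.31, adjusted p = 0.00081). Zfp362 fell by 1.84 (SE 0.53, adjusted p = 0.0203), from 5.42 to 10.3 CPM to 0.519 to 4.36 CPM, with a wide spread inside both metastasis groups. Zfp629 fell by 1.08 (adjusted p = 0.00674) and Zfp661 by 0.996 (adjusted p = 0.00215), both without overlap. Zfp966, from 5.78 to 7.90 CPM to 1.96 to 4.33 CPM, fell by 1.21 (adjusted p = 0.000514), but 93.9% of its 31-base words occur in other genes, so which copy fell is uncertain. Zfp972 (-1.06, adjusted p = 0.0434) shares 70.8% and would not meet the level rule without the primary libraries. Its call was lost without any one of 10 libraries, with adjusted p up to 0.0934 (without Met2 replicate 2).

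**Figure D4:**
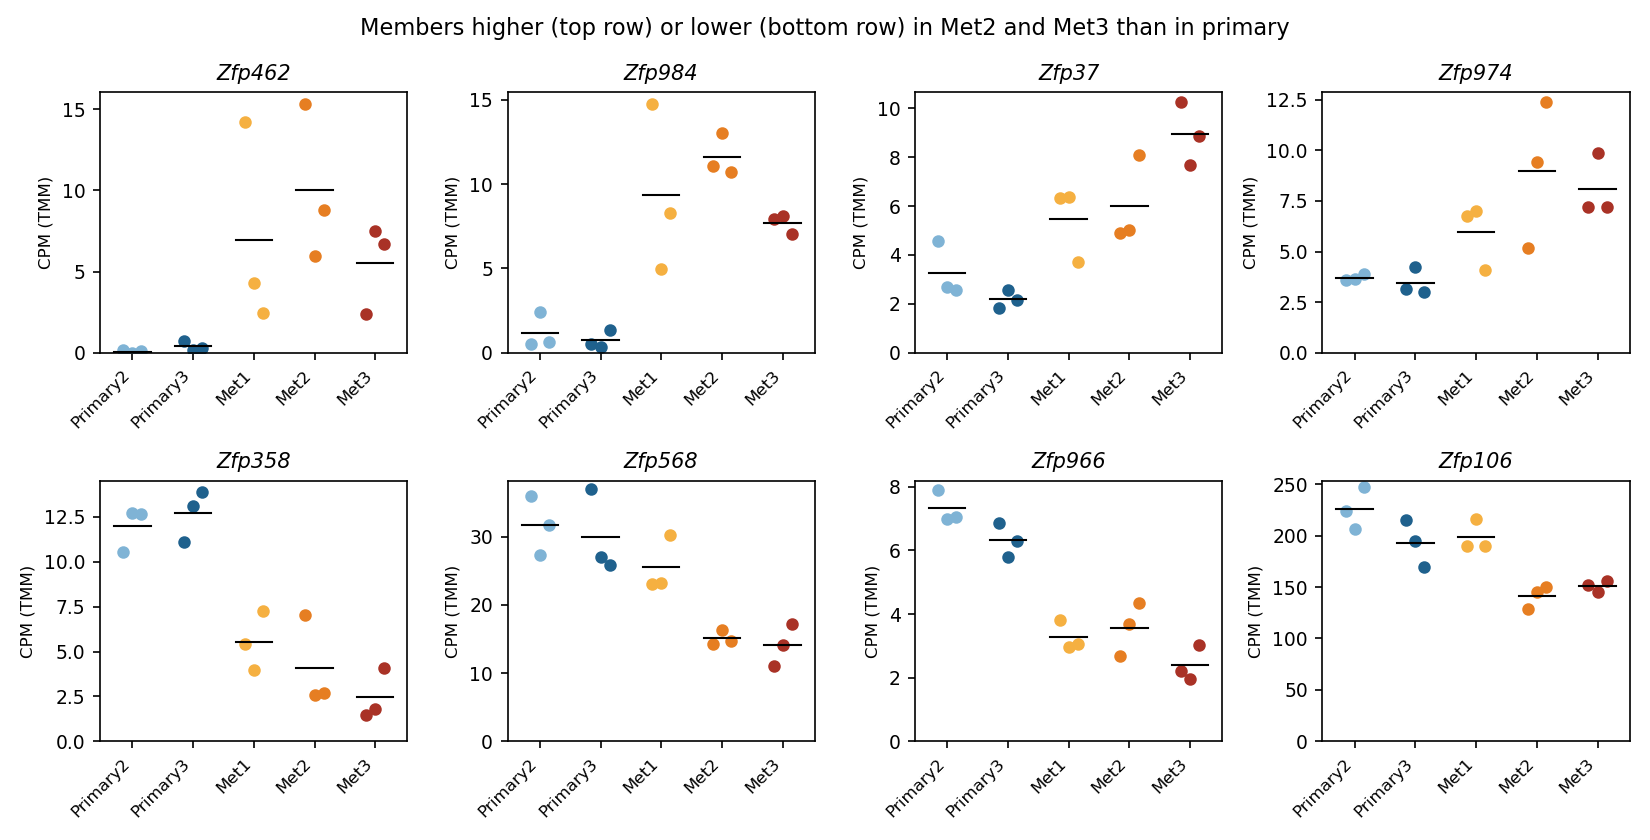
CPM (TMM-scaled, linear axis from 0) of 4 members that were higher and 4 that were lower in Met2 and Met3 than in primary organoids. Points are libraries and lines the means of 3. Zfp462 is at or below 0.741 CPM in all 6 primary libraries, and Zfp358 is at or above 10.5 CPM in all 6.

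Members listed for roles in mRNA decay, in RNA and ubiquitin biology or in development moved in both directions. Zfp36, which destabilises AU-rich mRNAs of cytokines, rose by 0.89 (SE 0.21, adjusted p = 0.00734). It stood at 14.5 to 17.4 CPM in Primary2, 18.4 to 32.6 CPM in Primary3, 24.2 to 41.4 CPM in Met2 and 28.5 to 61.3 CPM in Met3, so the groups overlapped. Of 10 members that act on RNA, the ribosome, the spindle or ubiquitin, 1 fell and none rose, where 16.1% and 14.3% of all tested genes did. That one was Zfp106, an RNA-binding protein needed by nerve and muscle, at 169 to 248 CPM in primary and 129 to 156 CPM in Met2 and Met3 (log2 change -0.52, SE 0.08, adjusted p = 0.000694). Of 15 listed regulators of development, 11 were members, and 4 rose and 1 fell (the same backgrounds). Besides Zfp462 these were Zfp384 (0.43), Zfp217 (0.34) and Zfp503 upward and Zfp148 (-0.36) downward. Zfp503, a corepressor, reached 37.9 CPM in Met2 replicate 1 and 8.96 CPM in Met3 replicate 3 but at most 1.47 CPM in the other Met2 and Met3 libraries. In Met1 it stood at 6.61, 5.83 and 4.48 CPM, above every primary library (log2 change 3.34 by edgeR, adjusted p = 0.0631). Without Met1 it would not meet the level rule. Its change of 3.56 in metastasis against primary (adjusted p = 0.0351) was no longer called without Met2 replicate 1 (adjusted p = 0.184), Met3 replicate 3 (0.168) or any one of 5 primary libraries (up to 0.0814). Zfp217 was no longer called without any one of several libraries, with adjusted p up to 0.0957 (without Primary3 replicate 1).

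Of 7 listed KRAB zinc fingers that guard imprinted genes or retroelements, 3 were members. Zfp568 fell, as above. Zfp57, which maintains methylation at imprinted loci, stood at 6.77 to 14.2 CPM in primary and 6.79 to 22.7 CPM in Met2 and Met3, with overlap (log2 change 0.33, adjusted p = 0.389). In Met1 it stood at 27.7, 28.8 and 15.7 CPM, above all primary libraries (log2 change 1.22, adjusted p = 0.0147). Zfp932, a silencer of endogenous retroviruses, changed by 0.11 (adjusted p = 0.718), with 48.2% of its 31-base words shared, mainly with Gm15446. The proteins through which KRAB domains act were listed as 21 genes that are not members. In metastasis against primary none rose (background 14.3%) and 7 fell (background 16.1%): Setdb1, Cbx1, Cbx5, Atrx, Mphosph8, Fam208a and Dnmt3a. Their median log2 change over the list was -0.19. Setdb1, the histone methyltransferase recruited by Trim28, fell by 0.36 (adjusted p = 0.00398), from 36.9 to 51.3 CPM in primary to 29.8 to 39.4 CPM in metastasis. Trim28 itself changed by -0.23 (adjusted p = 0.0642).

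Across the rounds of metastasis, Met3 was set against Met1. By edgeR's quasi-likelihood test 42 of 239 members differed (17.6%), against 23.4% of all tested genes. Higher in Met3 were 7 members (2.93%, background 11.6%) and lower were 35 (14.6%, background 11.8%). The median log2 change was -0.24, against 0.01 for all genes, and 69.0% of members had a negative change, against 49.6% of all genes. Met1 libraries also hold more RNA of the hepatocyte marker Alb than Met3, at 1.01 to 5.66 CPM against at most 0.0577 CPM. Ttr and Apoa1 also had higher means in Met1 than in Met3, while Cyp2e1 and Fgb had lower ones. The part of these in the changes was not tested. Neighbouring pairs called in the same direction were 4 of 115 (3.48%), against 5.11% of neighbouring genes in general. They included one run of 3, Zfp871, Zfp799 and Zfp870 on chromosome 17 (32765496 to 32891642, GRCm38). Of the 10 chromosome 13 members from Zfp595 to Zfp65, all had a negative change in Met3 against Met1 (median -0.74), and Zfp953 (-0.93, adjusted p = 0.0426) and Zfp429 were called. In Met1 against primary 0 of these 10 had a negative change (median 0.34), and 1 was called higher.

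Within that run Zfp799 changed most. It stood at 6.91, 5.41 and 5.44 CPM in Met1, 5.30, 3.74 and 3.75 CPM in Met2 and 2.53, 2.77 and 2.57 CPM in Met3. All Met3 libraries were below all others, and it fell by 1.17 (SE 0.22, adjusted p = 0.00399). Zfp870 fell by 1.21 (adjusted p = 0.0221) and Zfp871 by 0.64 (adjusted p = 0.0202). Zfp870 was no longer called without Met1 replicate 1 (adjusted p = 0.0792) or Met3 replicate 2 (0.0754), and Zfp871 without Met1 replicate 2 (0.0724), Met3 replicate 1 (0.0873) or Met3 replicate 3 (0.0677). Genes of another kind near the run were also lower, Cyp4f16 by 0.74 (adjusted p = 0.027) and Cyp4f17 by 3.56 (adjusted p = 0.0399). Cyp4f13 (-0.29, adjusted p = 0.518), Zfp472 (0.57, adjusted p = 0.0851) and Zfp952 (-0.08, adjusted p = 0.809) were not called.

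The largest differences between Met3 and Met1 ran in both directions. Zfp352, known from the early cleavage-stage embryo, stood at 0.451, 0.159 and 0.503 CPM in Met1, 3.15, 11.9 and 7.64 CPM in Met2 and 31.5, 10.3 and 8.65 CPM in Met3. It was higher in Met3 than in Met1 by 5.47 (SE 0.89, adjusted p = 0.00247), with no overlap. Primary libraries held 1.57 to 10.2 CPM, so Met1 was the group apart (Met1 against primary -3.46, adjusted p = 0.00735, but 0.0764 by limma-voom). Zfp352 shares 21.5% of its 31-base words with other genes. Zfp296, expressed in pluripotent cells, rose by 1.84 (SE 0.34, adjusted p = 0.00353), from 1.86 to 2.35 CPM in Met1 to 6.13 to 10.2 CPM in Met3, and Zfp692 by 1.05 (adjusted p = 0.00393), from 12.03 to 19.5 CPM to 27.9 to 36.1 CPM. In both genes Met1 was also below all primary libraries. Zfp511 rose by 0.77 (adjusted p = 0.00296), from 17.2 to 21.5 CPM to 32.7 to 34.5 CPM. Zfp772 (0.81) and Zfp868 (0.48) were also higher, but each lost its call without any one of 4 libraries, with adjusted p up to 0.143 for Zfp772 (without Met3 replicate 2) and 0.0995 for Zfp868 (without Met3 replicate 2). Zfp772 shares 26.0% of its words.

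Zfp429 fell most. It stood at 9.17, 2.92 and 4.39 CPM in Met1, 6.64, 2.26 and 4.26 CPM in Met2 and 0.700, 0.808 and 0.367 CPM in Met3. It was lower in Met3 than in Met1 by 3.12 (SE 0.51, adjusted p = 0.00249) and was the single member that differed between Met3 and Met2 (0.418%, background 0.275%). That difference, at -2.80 (adjusted p = 0.0433), was no longer called without any one of 5 of the 6 Met2 and Met3 libraries (adjusted p up to 0.175, without Met3 replicate 1). The gene shares 40.0% of its 31-base words with others, mainly Rsl1. Zfp775 fell by 1.66 (SE 0.30, adjusted p = 0.0033), from 7.45 to 7.79 CPM in Met1 to 1.99 to 2.75 CPM in Met3, and Zfp52 by 1.56 (adjusted p = 0.00584), from 30.3 to 42.8 CPM to 10.4 to 16.2 CPM. Zfp931 (-1.57) and Zfp248 (-1.53) were also lower, but each lost its call when single libraries were left out, with adjusted p up to 0.0835 (without Met1 replicate 3) and 0.0951 (without Met1 replicate 1). Zfp931 shares 39.8% of its words. Zfp703, a corepressor amplified in luminal breast cancer, was at 98.5, 113 and 106 CPM in Met1 against 44.2 to 74.7 CPM in Met3 and 33.8 to 50.8 CPM in Met2. It was above primary in Met1 by 1.57 (SE 0.20, adjusted p = 0.000456) and lower in Met3 than in Met1 by 0.93 (adjusted p = 0.0162). The latter call was lost without Met1 replicate 2 (adjusted p = 0.0534), Met3 replicate 2 (0.0615) or Met3 replicate 3 (0.0592).

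**Figure D5:**
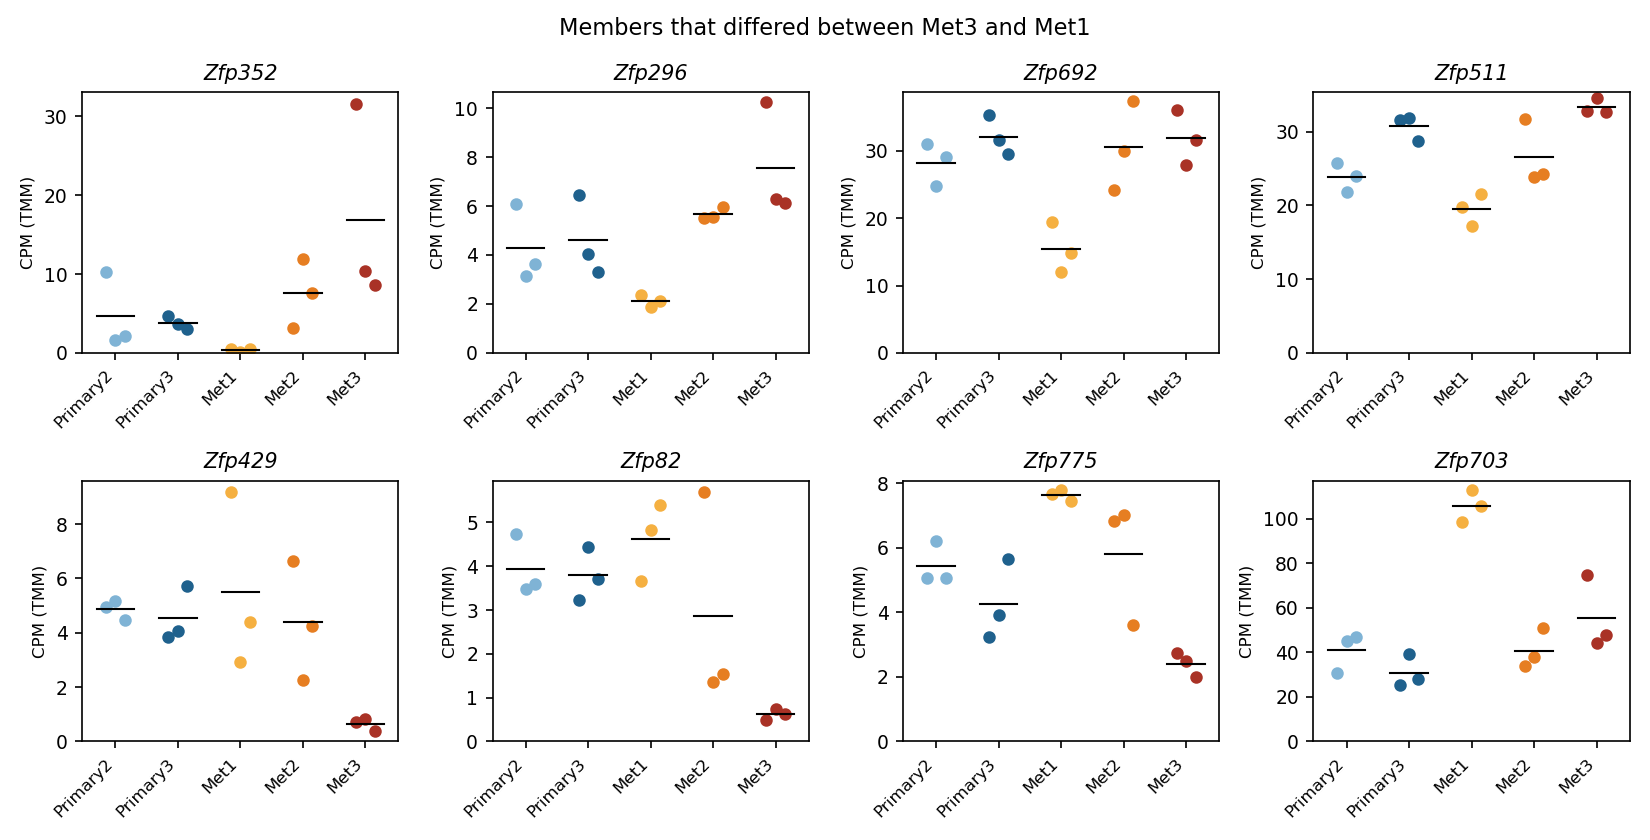
CPM (TMM-scaled, linear axis from 0) of 4 members that were higher and 4 that were lower in Met3 than in Met1. Points are libraries and lines the means of 3. Met1 is the lowest group in Zfp352, Zfp296, Zfp692 and Zfp511 and the highest in Zfp703.

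Met1 was compared with the mean of both primary groups. By edgeR's quasi-likelihood test 48 members differed (20.1%, background 29.6%), 30 of them higher (12.6%, background 14.9%) and 18 lower (7.53%, background 14.7%). Without Met1 replicate 2, 17 were called in all. Calls over all genes fell as well, from 4420 of 14925 to 2115 of 15392. Met3 differed from Primary3 in 49 members (20.5%, background 19.1%), 16 higher and 33 lower (backgrounds 8.12% and 11%). Met2 differed from Primary2 in 14 (5.86%, background 11.8%), 6 higher and 8 lower (backgrounds 5.5% and 6.35%). Met2 differed from Met1 in 20 (8.37%, background 16.3%), 7 higher and 13 lower (backgrounds 8.7% and 7.57%), a count that fell to 3 without Met1 replicate 2. All genes called between Met2 and Met1 fell too without that library, from 2428 of 14925 to 573 of 15392. Each of these comparisons shares libraries with another. Counts moved by over 1.5 times without single libraries. Met3 against Primary3 fell to 21 without Met3 replicate 1, 32 without Met3 replicate 2, 29 without Primary3 replicate 1 or 2 and 24 without Primary3 replicate 3. Met2 against Primary2 fell to 6 without Primary2 replicate 1 or 3, 5 without Primary2 replicate 2 and 7 without Met2 replicate 2 or 3, and Met2 against Met1 to 11 without Met1 replicate 3. In the same fits calls over all genes fell as well, to 1372 to 1983 in Met3 against Primary3 (2850 with all libraries). They fell to 715 to 1375 in Met2 against Primary2 (1768 with all libraries) and to 1520 in Met2 against Met1 (2428 with all libraries). A test of whether the metastasis effect differed between rounds 2 and 3 called 0 members by edgeR (background 0%), with 38 at an unadjusted p under 0.05. DESeq2 called 2 members there, and 225 of all 14925 genes. Primary3 against Primary2 called 0 members by edgeR (background 0%), with 17 at an unadjusted p under 0.05 and 1 called by DESeq2 (44 of all 14925 genes).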

How the data were processed

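The authors deposited a table of estimated counts per gene, made with Salmon 1.3.0 on mm10, per the submitters' processing notes. Not given in the sources used here are the annotation release, the summing of transcripts and the rounding. All values were whole numbers (0 with a fractional part), so rounding changed none. Each of 15 columns was matched to a sample through the library name in its label. Symbols and positions came from GENCODE M21 (GRCm38), which matched 54096 of 54418 IDs, and promoter windows from RefSeq (GRCm38.p6).

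One edgeR 4.0.16 fit (R 4.3.3; TMM, glmQLFit and glmQLFTest) held 5 group means over all 15 libraries and the 14925 genes left by filterByExpr. It was tested on simulated data. Adjusted p-values are Benjamini-Hochberg over these genes, called under 0.05. CPM in the level rule used raw column sums. The depth limits genes near 1 CPM, where 1 library can decide a call. DESeq2 1.42.0, limma-voom (limma 3.58.1), no filter, other scalings and fits leaving out each library were alternatives. Members sharing transcript sequence were found by comparing 31-base words over all GENCODE M21 transcripts. Named were the 8 largest changes each way in metastasis against primary, the 6 each way in Met3 against Met1 and the 2 each way elsewhere, among called members whose average log2 CPM was 1 or more and without overlap of libraries, every member of a run of 3 or more, and fixed role lists. The members, lists and comparisons were chosen with earlier results of these data known. Genes of pairs of neighbours, the joined stretch and the promoter word were picked with their values in view. The 29 genes on chromosomes 9 and 18 were left out by the rule and were not analysed here.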

Additional observations from a re-analysis of the deposited data

How the results depend on the processing

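No called value or count reversed under any alternative. Of 101 values of single named members, 65 were called and 39 of these stayed called in every alternative, among them Zfp568, Zfp146, Zfp27, Zfp82, Zfp260, Zfp383, Zfp358, Zfp462 and Zfp984 in metastasis against primary. With no low-count filter, members called fell to 37 in metastasis against primary, 7 in Met2 against Primary2, 9 in Met2 against Met1 and 25 in Met1 against primary, and same-direction pairs to 4. Of 32481 genes, that fit called 3883, 1374, 1911 and 3730 in the same order. DESeq2 called 67 members in Met3 against Met1, 22 in Met2 against Primary2, 20 in Met3 against Met2, 115 for any difference (75 by edgeR), 2 in the difference between rounds and 1 in Primary3 against Primary2, with 7 pairs in Met3 against Met1. Of all 14925 genes DESeq2 called 4388, 2830, 588, 7846, 225 and 44 in the same order. By edgeR these were 3499, 1768, 41, 5882, 0 and 0. Limma-voom called 0 in Met3 against Met2 (4 of all 14925 genes) and 7 pairs in Met3 against Met1. Fits of only the groups compared called 3 in Met2 against Primary2, 0 in Met2 against Met1, 0 in Met3 against Met2 and 2 pairs in Met3 against Met1. For genes of all kinds these counts were 215 of 13534, 14 of 13499 and 0 of 13328 in the same order. With members at 1 CPM in 3 libraries, the pairs in Met3 against Met1 were 8.

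Leaving out 1 library gave 47 to 72 members in metastasis against primary, 28 to 41 in Met3 against Met1, 5 to 19 in Met2 against Primary2, 21 to 38 in Met3 against Primary3, 3 to 19 in Met2 against Met1, 0 to 4 in Met3 against Met2, 17 to 44 in Met1 against primary, 48 to 86 for any difference, and 0 in the difference between rounds and in Primary3 against Primary2. Counts over all genes, in the same order, were 3656 to 5265, 1988 to 2702, 715 to 2150 and 1372 to 2319. They went on with 573 to 2527, 0 to 203, 2115 to 4162, 4164 to 6793, 0 to 17 and 0 to 2. Pairs ranged from 4 to 11 in metastasis against primary (4 without Met3 replicate 1, 5 without Met2 replicate 2, Met2 replicate 3, Primary3 replicate 1 or Primary3 replicate 2) and from 2 to 4 in Met3 against Met1 (2 without Met1 replicate 1 or Met3 replicate 3).

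Replicate numbers did not pair the libraries: correlations between same-numbered libraries ran from -0.13 to 0.27, 8 of 30 over 0.1. A replicate block changed the Met3 against Met2 count to 0 and moved no other count by over 1.5 times. Depth limits members near 1 CPM, where counting error is largest.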
